A study of Mus musculus with 2 samples.

Results

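Transcripts of 46 genes of Wnt signalling were followed in cultured mouse embryonic fibroblasts, connective tissue cells taken from the embryo. The members were named ligands, receptors, secreted inhibitors, cytoplasmic parts, nuclear factors and targets, matched by gene symbol to the probes of an Illumina bead array. Of the 46, 42 had a probe, with 55 probes in all, out of 16593 genes measured by 23978 named probes. Fzd5, Lgr4, Axin1 and Tcf7 had no probe under their symbol and have no value here. The study holds 2 cultures, both labelled male, given either no agent or Fgf2 (fibroblast growth factor 2), which is secreted and signals through receptor tyrosine kinases. Its title ties them to the making of induced pluripotent stem cells. Each group is 1 culture on 1 array. There is thus neither a replicate nor a test for any value, and an effect of Fgf2 and any other difference between these cultures cannot be told apart. Dose and time of exposure are not in the labels. By the design text neither culture had Fgf2, so every direction below rests on the title and agent labels.

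Wnt ligands are secreted glycoproteins that carry a lipid and act near the cells that make them. In the branch that runs through beta-catenin, a ligand bridges a Frizzled receptor and a co-receptor of the Lrp family, Dishevelled is recruited, and the complex of Axin, Apc and glycogen synthase kinase 3 stops marking beta-catenin for destruction, so that it enters the nucleus and acts with Tcf and Lef factors. Other ligands signal through Ror receptors and Frizzleds without beta-catenin, to the cytoskeleton and cell polarity. Fibroblasts both send and receive Wnt signals, and secrete inhibitors that bind the ligands or the co-receptors.

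The platform gave each probe a signal and a detection p-value, the chance of such a signal from background alone. A probe was called detected at a detection p below 0.01, and levels are log2 values after background correction and quantile normalization. Levels are set against each other only within 1 probe, and sums over a marker list are compared only between the arrays. Detection was called for 41.1% of the 25697 probes without Fgf2 and for 39.9% with it. All 11 fibroblast markers with a probe were detected on both arrays, and their summed level was 15.92 without Fgf2 and 15.74 with it on the log2 scale. Single markers moved in opposite directions within that sum, with differences of -2.53 for Col1a1, -1.85 for Col1a2, -1.80 for Pdgfrb, 1.36 for Pdgfra and 0.95 for Twist2. Of the markers of other cells, 0 of 6 endothelial, 2 of 6 macrophage, 3 of 9 epithelial, 2 of 5 neural and 1 of 5 skeletal muscle genes were detected on both arrays, and the leukocyte gene Ptprc and the epithelial gene Cdh1 on neither. Some of these also differed: the keratin gene Krt14 was at least 5.86-fold lower with Fgf2, and the differences were 1.32 for Krt19, 1.58 for the monocyte gene Cd14 and -1.10 for the muscle gene Des. Of 5 smooth muscle and myofibroblast markers, 3 were detected on both arrays, each lower with Fgf2, with a summed level of 15.81 without it and 15.14 with it. Actg2 differed by -2.53 and Tagln by -1.85. Most of that sum is the brightest probe of Acta2, which differed by -0.25, while the other Acta2 probes differed by -2.00, -1.86 and -1.77. Myh11 was detected only without Fgf2. The part of these markers in the Wnt values was not tested.

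Among the 46 members, none detected in both cultures differed by 2-fold or more. Of the 42 with a probe, 21 were detected on both arrays, 4 only without Fgf2, 1 only with it and 16 on neither. For the 21 this count of 0 holds in either direction, where across the 6898 genes detected on both arrays the shares past 2-fold were 1.8% on the side higher with Fgf2 and 2.52% on the lower side. With so few members, a share near those would be less than 1 gene. The log2 differences, level with Fgf2 minus level without, ran from -0.91 for Wnt2 to 0.39 for Tcf7l1, with a median of -0.10 beside 0.03 over all 6898 genes. Values below 0 belonged to 12 of the 21 members (57.1%) and to 45.9% of all genes. At 1.5-fold, 3 members were lower (Wnt2, Gsk3b and Sfrp1) and 0 higher, where 7.25% of all genes were lower and 6.76% higher. The median size of a difference, without its sign, was 0.29 for the members and 0.23 for all genes. In bulk RNA such as this, fewer cells that make a transcript and less of it per cell cannot be told apart.

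A yardstick for the size of these differences came from genes with several probes. The pooled SD between the differences of probes for one gene was 0.22 over 1749 genes. It covers only the spread between probes of a gene that were detected on both arrays. Error shared by all probes of a gene is not in it, and it says nothing of how much cultures vary. Of the 21 members, 13 differed by more than that (61.9%, against 53.0% of all genes) and 8 by less. Among the members themselves, 3 genes had more than 1 probe detected on both arrays, and their 6 probes had a pooled SD of 0.17.

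**Figure D1:**
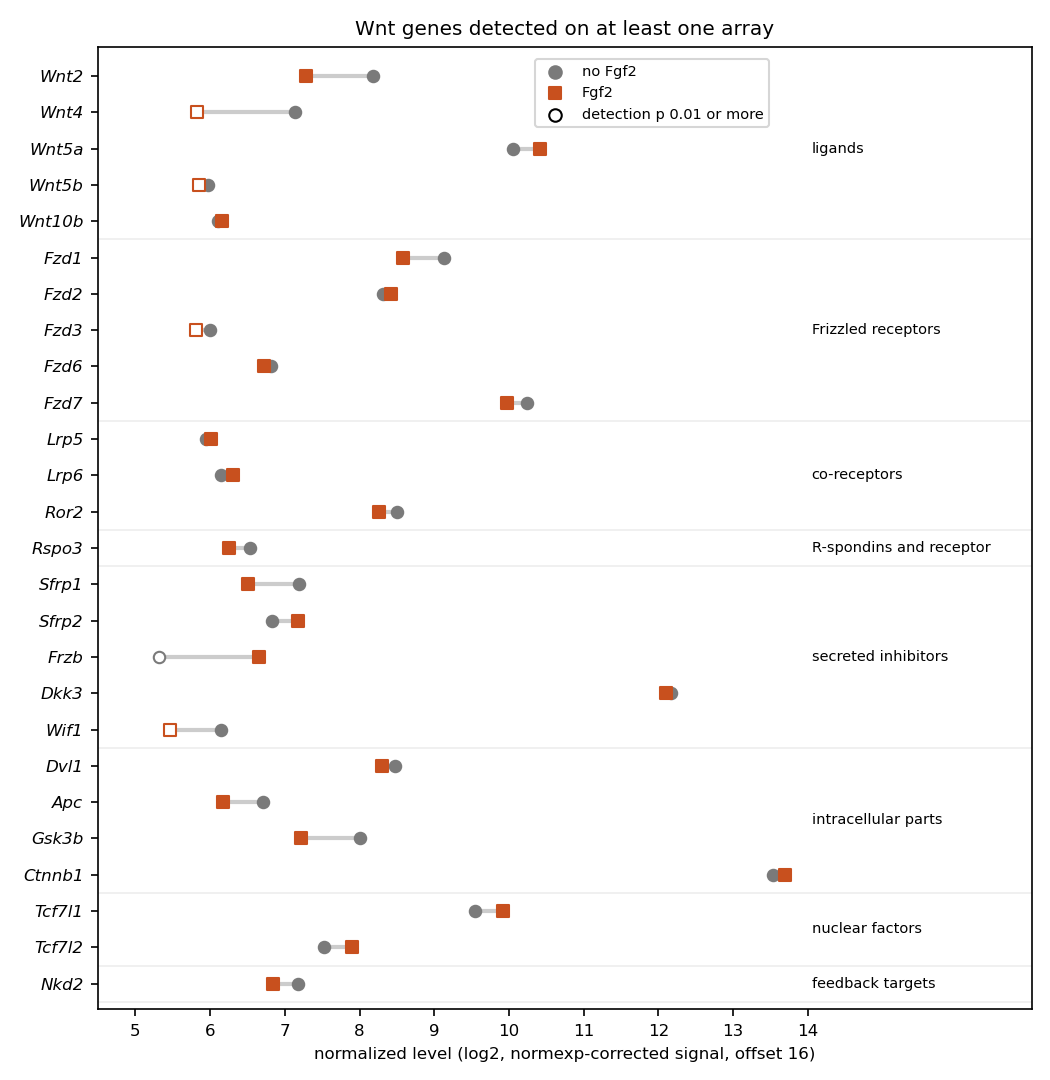
Normalized level (log2) of the 26 Wnt genes detected on at least one array, by role, with a grey circle for the culture without Fgf2 and an orange square for the culture with it; open symbols had a detection p of 0.01 or more. Each gene is shown by 1 probe, positions can be compared along a row and not between rows, and the widest gaps belong to Wnt4, Frzb and Wnt2.

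The promoters of 4 members are given here as examples, chosen after the values were seen. They are those of Wnt4, the member with the greatest bound, Frzb, the member detected only with Fgf2, and Axin2, a feedback target of beta-catenin. The last is that of Wnt5b, which holds a letter match to a Tcf and Lef site. The sequences come from RefSeq on GRCm38.p6 and run 5′ to 3′ on the gene's strand, from 250 bases before the gene's start to 50 after it. Capitals mark the letters CTTTGAT or CTTTGAA, or their reverse complements ATCAAAG and TTCAAAG, a core of the site bound by Tcf and Lef factors. The letter strings differ in their last base, so they cannot match at the same place on one strand.
Wnt4 (chr4:137277385-137277684, plus strand): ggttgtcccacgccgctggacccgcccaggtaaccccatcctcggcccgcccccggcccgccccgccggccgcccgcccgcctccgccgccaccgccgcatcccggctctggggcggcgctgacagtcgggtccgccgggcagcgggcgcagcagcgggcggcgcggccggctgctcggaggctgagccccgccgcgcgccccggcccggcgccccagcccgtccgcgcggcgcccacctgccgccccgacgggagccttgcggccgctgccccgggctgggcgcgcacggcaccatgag
Frzb (chr2:80447347-80447646, minus strand): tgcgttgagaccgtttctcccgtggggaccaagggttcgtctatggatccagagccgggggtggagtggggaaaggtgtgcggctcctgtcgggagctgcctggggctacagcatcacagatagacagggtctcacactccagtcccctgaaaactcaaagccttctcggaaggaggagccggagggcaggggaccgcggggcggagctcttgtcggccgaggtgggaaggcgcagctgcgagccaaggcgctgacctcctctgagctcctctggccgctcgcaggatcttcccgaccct
Axin2 (chr11:108920099-108920398, plus strand): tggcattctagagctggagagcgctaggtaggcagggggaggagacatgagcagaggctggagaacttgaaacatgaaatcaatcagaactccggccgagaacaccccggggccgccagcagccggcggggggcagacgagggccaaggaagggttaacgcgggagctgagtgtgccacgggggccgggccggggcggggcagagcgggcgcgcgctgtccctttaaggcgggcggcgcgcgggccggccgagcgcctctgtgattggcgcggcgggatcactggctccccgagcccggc
Wnt5b, the window nearest its 3′ end (chr6:119449337-119449636, minus strand): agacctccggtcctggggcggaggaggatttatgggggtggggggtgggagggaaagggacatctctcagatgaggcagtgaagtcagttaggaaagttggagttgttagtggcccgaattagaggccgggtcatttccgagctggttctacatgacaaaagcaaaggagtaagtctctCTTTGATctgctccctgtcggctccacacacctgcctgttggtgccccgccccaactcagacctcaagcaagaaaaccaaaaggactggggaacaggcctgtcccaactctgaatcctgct
In the Wnt5b window the match CTTTGAT begins at position -71, where 0 is the first base of the transcript. The other 2 Wnt5b promoters in the table, from starts further upstream, held no match, and neither did those of Wnt4, Frzb and Axin2. The Wnt4 window was 84.3% G and C with 51 CpG dinucleotides, the Frzb window 64.7% with 20, and the Axin2 window 70.0% with 31. The median was 66.3% with 24 CpG over the member windows, and 52.7% with 7 over all promoters of this length. RefSeq promoters were at hand for 32 of the 46 members, 41 windows in all, of which 3 held a match (7.32%). The share over all 32851 windows was 8.65%. The other matches were CTTTGAA at -117 of Dkk1 and ATCAAAG at -51 of 1 of the Wnt11 windows. Neither Dkk1 nor Wnt11 was detected on either array. A match describes letters, not a site in use.

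Among the 8 ligands, Wnt2, Wnt5a and Wnt10b were detected on both arrays, Wnt4 and Wnt5b only without Fgf2, and Wnt2b, Wnt9a and Wnt11 on neither. Wnt4, a ligand known from the kidney tubule and the female reproductive tract, stood out. Its brighter probe had a signal of 252.1 without Fgf2 and 169.5 with it, and levels of 7.14 and 5.83. The detection p was 0 without Fgf2 and 0.015 with it, so the transcript passed the detection threshold on one array and missed it on the other. Set against the dimmest detected probe on the array with Fgf2, at a level of 5.99, Wnt4 was at least 2.22-fold lower with Fgf2. Of the 472 genes detected only without Fgf2, 8.05% had a bound of at least 2-fold. The second Wnt4 probe gave a plain difference of -1.29 beside -1.30, from levels of 6.62 and 5.33. It was not detected with Fgf2 either (detection p 0.0739). Both differences use a level that missed detection, and the second probe adds no 2-fold bound. Both probes sit close to background, and the bound fell to 1.44-fold with no background correction and 1.79-fold with an offset of 50 or the lowest signal subtracted.

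Wnt2, a ligand of the beta-catenin branch with roles in lung and placenta, had a signal of 400.0 without Fgf2 and 268.3 with it. Its level went from 8.18 to 7.28, a difference of -0.91, or 1.87-fold lower with Fgf2. This was the lowest value among the 21 members detected on both arrays. The Wnt2 difference was -0.59 without background correction and -0.98, or 1.97-fold, in the authors' processed table, just short of 2-fold. Wnt5a, which signals chiefly through Ror2 and without beta-catenin, was at 10.05 without Fgf2 and 10.41 with it by its brighter probe, a difference of 0.35. The other Wnt5a probe was at 8.50 and 8.49, a difference of -0.01, so the probes of this gene did not give one answer. Wnt10b, a ligand known for holding back fat cell formation, was barely above background at 6.10 and 6.16. For Wnt5b, the close relative of Wnt5a, the detection p moved from 0.00877 to 0.015 while the level moved only from 5.97 to 5.85, and no bound could be set. The undetected ligands had detection p-values between 0.0727, for Wnt11 with Fgf2, and 0.722, for Wnt9a with Fgf2.

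Frizzled receptors, the membrane proteins that bind Wnts, were mostly present in both cultures. Fzd1, Fzd2, Fzd6 and Fzd7 were detected on both arrays, Fzd3 only without Fgf2, and Fzd4 and Fzd8 on neither. Fzd1 differed most, from 9.13 without Fgf2 to 8.58 with it, a difference of -0.56, or 1.47-fold. Fzd7, a receptor of early embryonic and stem cells, went from 10.24 to 9.97, a difference of -0.27. Fzd2, which also takes Wnt5a as a ligand, was at 8.31 and 8.42, and Fzd6, a polarity receptor, at 6.82 and 6.72. These last differences, 0.11 and -0.10, were smaller than the SD between probes. The polarity receptor Fzd3 had detection p-values of 0.00752 and 0.0163, with levels of 6.0 and 5.81 and a bound of only 1.01-fold. The median of the 4 receptors detected on both arrays was -0.18, with 3 of 4 below 0. Fzd8 came near detection, with 0.0188 and 0.0251.

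Co-receptors had differences between -0.24 and 0.16. Lrp5 and Lrp6, the partners of Frizzled in the beta-catenin branch, were at 5.94 and 6.01, and at 6.15 and 6.31, each value without Fgf2 given first. Both were near background, with detection p-values of 0.00877 for Lrp5 and 0.00376 for Lrp6 on each array. Ror2, the tyrosine kinase receptor for Wnt5a, was at 8.50 without Fgf2 and 8.26 with it, a difference of -0.24. Ror1, its relative, was not detected, with detection p-values of 0.221 and 0.162. R-spondins are secreted proteins that strengthen Wnt signals by keeping receptors at the surface. Rspo3 alone of the 3 with a probe was detected, at 6.54 and 6.25, a difference of -0.29. Rspo1 and Rspo2 were detected on neither array, with detection p-values from 0.0338 to 0.122.

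Secreted inhibitors went both ways. Sfrp1, a secreted protein with a Frizzled-like domain that binds Wnts, had a signal of 257.9 without Fgf2 and 204.5 with it, and levels of 7.19 and 6.51. That is a difference of -0.68, or 1.6-fold lower with Fgf2, and it was -0.34 without background correction. Sfrp2, of the same family, differed in the other direction, from 6.83 to 7.17, a difference of 0.34. Frzb, another member of that family also known as Sfrp3, was the 1 Wnt gene detected only with Fgf2. Its signal was 150.7 without Fgf2 and 214.0 with it, its detection p 0.0739 and 0, and its levels 5.31 and 6.65. Against the dimmest detected probe on the array without Fgf2, at 5.87, the culture with Fgf2 had at least 1.72-fold more, or at least 1.25-fold with no background correction. Of the 279 genes detected only with Fgf2, 11.1% had a bound of at least 2-fold, and Frzb was not among them. Wif1, which binds Wnts outside the cell, passed detection in the culture without Fgf2 alone (detection p 0.00376, against 0.0489), with levels of 6.15 and 5.46 and a bound of 1.12-fold.

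The Dickkopf proteins Dkk1 and Dkk2, which bind Lrp5 and Lrp6, were detected on neither array, with detection p-values between 0.122 and 0.595. Sfrp4 was not detected either. Dkk3, a divergent relative whose action on Wnt signals is less settled, was well above background by its brighter probes. These gave 12.17 and 12.10 for one and 11.65 and 11.75 for the other, differences of -0.07 and 0.10. A dimmer further probe, detected only without Fgf2, gave -0.51. The sign for Dkk3 therefore depended on the probe, and the difference was within the SD between probes for both bright ones.

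**Figure D2:**
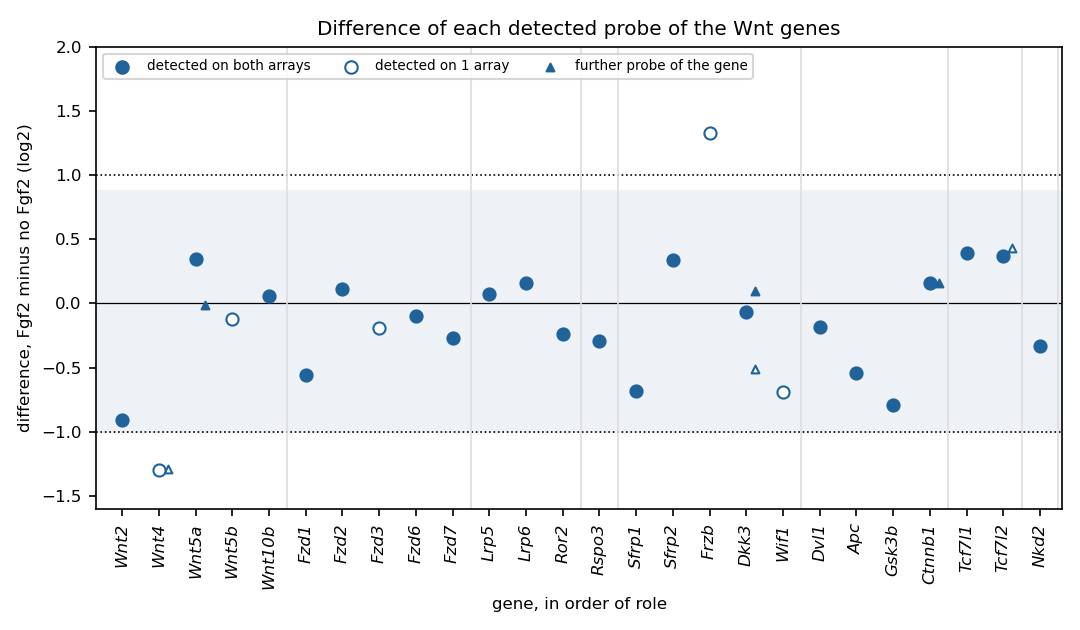
Difference (log2, Fgf2 minus no Fgf2) of each probe of the Wnt genes detected on at least one array, ordered by role with grey lines between roles; filled symbols were detected on both arrays, open ones on 1, triangles are further probes of the same gene, dotted lines mark 2-fold and the pale band spans the central 95% of all genes, -1.0 to 0.88. Only Wnt4 and Frzb, each detected on 1 array, lie beyond the dotted lines, and every probe detected on both arrays lies inside the band. Open symbols are plain differences that use a level that missed detection, not bounds.

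Inside the cell, the kinase gene Gsk3b had the largest difference. Its product phosphorylates beta-catenin within the destruction complex. The Gsk3b signal was 364.3 without Fgf2 and 260.6 with it, and its level went from 8.0 to 7.21, a difference of -0.79, or 1.73-fold lower with Fgf2. The scaffold gene Apc of the same complex was also lower, from 6.71 to 6.17, a difference of -0.54. The second Apc probe was not above background on either array. Without background correction the differences shrank to -0.50 for Gsk3b and -0.24 for Apc. Dvl1, a Dishevelled protein that passes the signal on from Frizzled, was at 8.48 and 8.30, a difference of -0.18, while Dvl2 and Dvl3 were detected on neither array. Ctnnb1, which encodes beta-catenin itself, had signals of 12160 and 13380 by one probe and 2933 and 3263 by the other. Both probes gave a difference of 0.16, less than the SD between probes of all genes. This is a transcript value, and beta-catenin is controlled largely by destruction of the protein, which arrays do not measure.

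The nuclear factors detected were both slightly higher with Fgf2. Tcf7l1, which mostly represses Wnt targets when no signal is present, was at 9.54 without Fgf2 and 9.92 with it, a difference of 0.39. A second probe, listed for another transcript record of the gene, was not detected on either array. Tcf7l2, a main partner of beta-catenin, was at 7.53 and 7.90, a difference of 0.37. Another of its probes missed detection without Fgf2, with a detection p of 0.0113, and gave 0.43, and the remaining one was detected on neither. Lef1 was below detection by both of its probes, with detection p-values from 0.411 to 0.718. Both of these nuclear factors thus differed by more than the SD between probes, and neither by as much as 1.5-fold.

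Targets that feed back on the pathway were dim. Axin2, the scaffold protein and widely used readout of beta-catenin activity, had signals of 157.2 without Fgf2 and 145.9 with it. Its detection p-values, 0.0388 and 0.117, missed the threshold on both arrays, so no direction is given. Nkd1, an inhibitor of Dishevelled that is likewise induced by Wnt signals, had 0.0388 and 0.142. Its relative Nkd2 was detected on both arrays, at 7.17 and 6.84, a difference of -0.33. With signals this near background on both arrays, lower levels or small differences of Axin2, Nkd1 or Lef1 could not be detected.

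**Figure D3:**
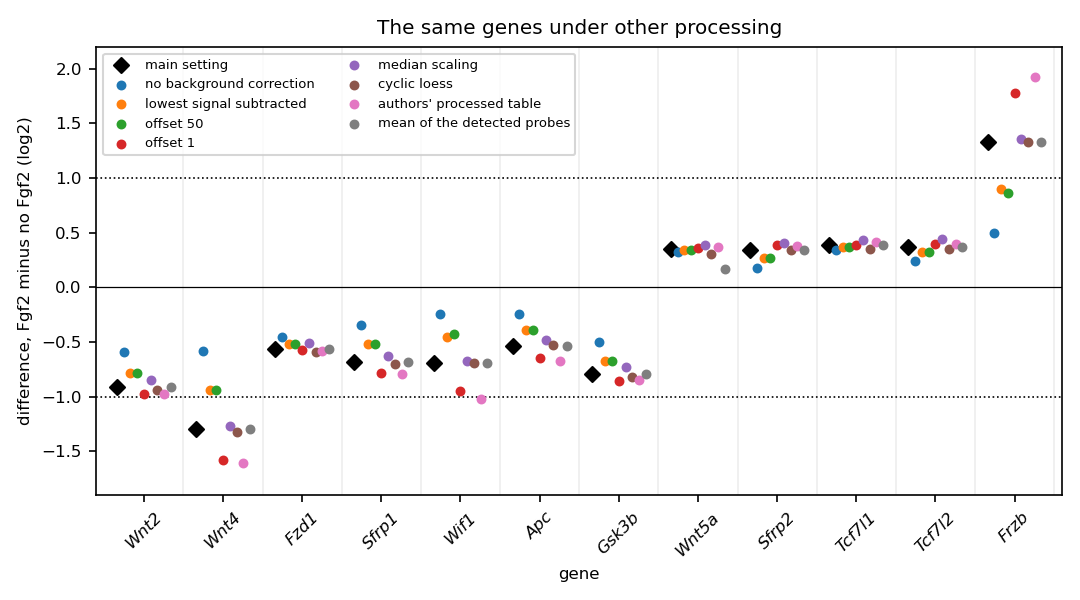
Difference (log2, Fgf2 minus no Fgf2) of 12 Wnt genes under the main processing (black diamonds) and under 8 other ways of correcting, scaling or summarising the probes (coloured circles), with dotted lines at 2-fold. All 12 kept their sign under these settings, the dim genes Wnt4, Wif1 and Frzb spread most, and Frzb ran from 0.50 to 1.93. Points of these dim genes, each detected on 1 array, are plain differences and not bounds.

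The other genes of the pathway were described from 8 lists with 153 genes, of which 143 had a probe and 70 were detected on both arrays. With Fgf2, 2 of these 70 were higher by 2-fold or more and 7 lower, beside shares of 1.8% and 2.52% over all genes, and their median difference was -0.05 beside 0.03. The lists were chosen with earlier results of these data known, so such counts describe the lists and cannot show an excess. Wnt10a, the remaining ligand detected out of 11, went from 8.70 to 7.48, a difference of -1.22, or 2.33-fold lower with Fgf2. Its detection p was 0 in either culture. The secretion genes had a median of 0.03 over 6. Wls, the carrier that takes Wnts to the cell surface, had the greatest difference there, from 11.07 to 10.54, or -0.53. For Vps26a the sign depended on the probe, with 0.14 for the brighter and -0.49 for the dimmer, both detected on both arrays.

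By the probe of highest mean level, all 7 other receptors and surface regulators detected on both arrays were below 0, with a median of -0.39. Over all genes 45.9% were below 0 and the median was 0.03. Not every probe shared that direction: a second Sdc1 probe detected on both arrays gave 0.05, beside -0.23 for the first. The glypican gene Gpc4, which encodes a heparan sulfate proteoglycan of the cell surface, was 2.55-fold lower with Fgf2, from 9.46 to 8.11. Its relative Gpc3 differed by -0.54 and -1.0 by 2 probes. Kremen1, a receptor for Dickkopf proteins, differed by -0.46, and Ryk, a Wnt receptor related to tyrosine kinases, by -0.39. The other Ryk probes gave -0.36 and -0.03. Lgr5, an R-spondin receptor known from stem cells, passed detection only without Fgf2 (detection p 0.00125, against 0.822), with a bound of 1.5-fold. Of 10 other secreted inhibitors, 3 were detected on both arrays. Igfbp4, a binding protein of insulin-like growth factors that can also inhibit Wnt receptors, was 2.52-fold higher with Fgf2, from 10.58 to 11.91. Apcdd1, a membrane inhibitor of Wnt signals, differed by 0.95, and Serpinf1 by -0.75.

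None of the 13 destruction complex genes, 10 nuclear cofactors or 12 genes of the polarity and calcium branches detected on both arrays was 2-fold apart, and 95.7% of all genes lay within 2-fold as well. Their medians were 0.00, 0.00 and -0.11. In the first group Siah1a, a ubiquitin ligase, differed by -0.75, Btrc, the ligase part that recognises beta-catenin, by 0.48, and Ppp2r5a by -0.29. Among the cofactors the values were 0.76 for Hic1, 0.70 for the corepressor gene Tle5, -0.48 for Tle1 and 0.45 for Ruvbl1. Further probes detected on both arrays gave -0.08 for Tle1, and 0.11 and 0.60 for Ruvbl1. In the polarity and calcium group the values were 0.39 for Vangl1, -0.33 for Nfatc1, -0.26 for Nfatc4 and -0.23 for Camk2d. A second Nfatc1 probe gave -0.52, while a dimmer Camk2d probe, also detected on both arrays, gave 0.30. The sign for Camk2d therefore depended on the probe.

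Genes listed as Wnt targets in other settings did not share a direction. Of 18 detected on both arrays, 9 were below 0 and 9 above, with 5 at least 2-fold lower, 1 at least 2-fold higher and a median of 0.01. Over all genes 2.52% were that much lower and 1.8% that much higher. As the target list was chosen with earlier results of these data known, its counts cannot show an excess over those shares. Lower with Fgf2 were the matricellular genes Ccn5 (11.58 to 7.06) and Ccn4 (12.30 to 10.25), the growth factor gene Bmp4 (9.50 to 7.70), the urokinase receptor gene Plaur (8.70 to 7.59) and the ephrin gene Efnb1 (9.73 to 8.64). The endothelin gene Edn1, detected only without Fgf2, was at least 3.74-fold lower. The cyclin gene Ccnd1 was higher with Fgf2, from 12.53 to 13.88. For Myc, which passed the detection threshold in the culture without Fgf2 alone, the bound was 1.56-fold. Its detection p with Fgf2 was 0.01, at the threshold, and a second Myc probe was detected on neither array. As background, most of these genes also answer to other pathways.

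**Figure D4:**
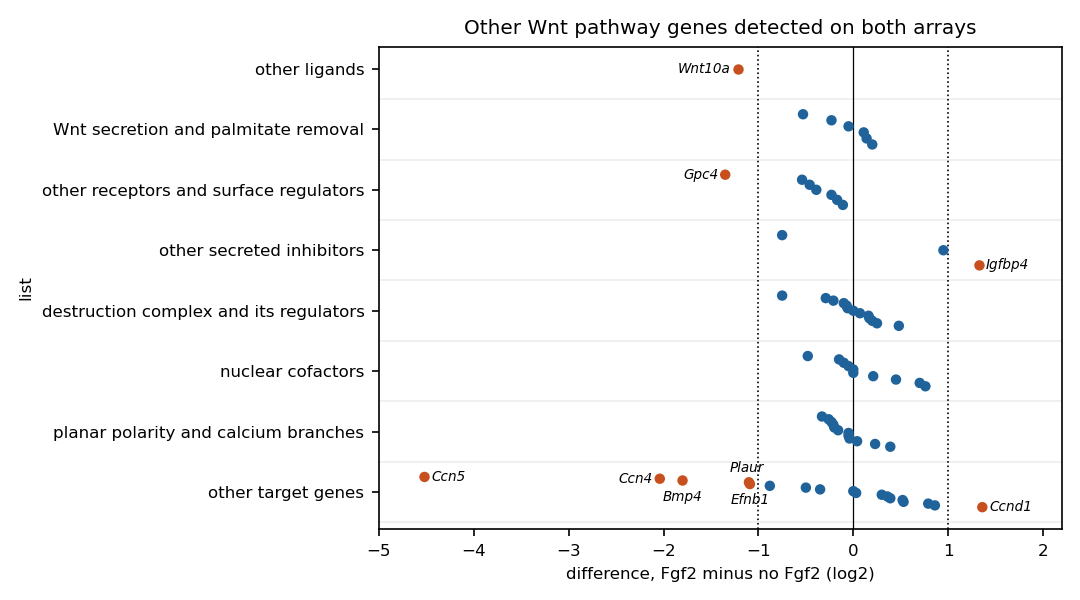
Difference (log2, Fgf2 minus no Fgf2) of the 70 other Wnt pathway genes detected on both arrays, 1 point per gene in 8 lists, with dotted lines at 2-fold and genes at least 2-fold apart in orange and named. Most of the named genes lie among the targets, and the lists of destruction complex, cofactor and polarity genes lie inside the dotted lines.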

How the data were processed

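Per the labels' protocols, 300 ng of total RNA per culture was amplified into biotinylated cRNA and read on 1-colour Illumina arrays. The deposited table holds a linear intensity and a detection p-value for each probe and array, per the file headers, and the values show no sign of normalization between arrays. The authors' processed table holds log2 values with the same quantiles on both arrays. The submitters' processing notes list BeadStudio 3.2, lumi and RMA without saying what each did. No genome build is given in the sources used.

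With limma 3.58.1 in R 4.3.3, signals were corrected by normexp, its background inferred from the detection p-values, with an offset of 16, then log2 transformed and quantile normalized. Normalization used all probes. The steps were tested on simulated arrays with known folds. Only probes detected on both simulated arrays were scored there, so the bounds for genes detected on 1 array were not tested. Further steps used Python 3.11.15, pandas 2.3.3, numpy 2.4.6 and matplotlib 3.10.9. The platform annotation named 23978 probes and left 1719 unnamed. Symbols were updated by Entrez number through a RefSeq gene table for 23962 probes, and 16 kept theirs. Each gene stands for its probe of highest mean level over both arrays. Where only 1 array detected a gene, a fold in the text is a bound. It is set against whichever is higher on the dim array, its own level or that of the dimmest detected probe. Log2 differences given or plotted for such genes or probes are not bounds and use the level that missed detection.

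A group of 1 array leaves no degrees of freedom for a test, so 2-fold among genes detected on both arrays took its place, and precision is limited by the number of arrays. The members and lists were chosen with earlier results of these data known. Every member was to be accounted for. From each other list, the text was to name up to 4 genes with the greatest absolute difference, those at least 2-fold apart or with such a bound, and Ccnd1, Myc, Ccn4 and Ccn5. Lgr5 and the 4 promoters printed were chosen after their values were seen. Tried as alternatives were no background correction, subtraction of the lowest signal, offsets of 50 and 1, median scaling, cyclic loess, the authors' table, other detection filters, the mean of probes, and thresholds of 1.5-fold and 3-fold.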

Additional observations from a re-analysis of the deposited data

How the results depend on the processing

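No member reached 2-fold in either direction among genes detected on both arrays under other background corrections, offsets or scalings, the authors' processed table or the mean of probes. With a detection p below 0.05 allowed on both arrays, 1 member (Wnt4) was at least 2-fold lower. Under that filter 154 of all 7685 genes were at least 2-fold higher and 206 lower. With detection on at least one array, or with no detection filter, 1 member was at least 2-fold higher (Frzb) and 1 lower (Wnt4). Over all genes the first of these filters gave 219 higher and 279 lower of 7649. Without a filter the counts were 236 and 286 of 16593. At 1.5-fold the lower count of members was 3, and at 3-fold it was 0. The median of the members ran from -0.15 to -0.03, and that of the secreted inhibitors moved from -0.07 to -0.38 with a detection p below 0.05, which added 1 gene. Of the other pathway genes, 4 rather than 7 were at least 2-fold lower without background correction. At 1.5-fold 7 were higher and 10 lower, and at 3-fold 0 were higher and 3 lower. Over all genes 6.76% were higher and 7.25% lower at 1.5-fold, and no share is given at 3-fold. Over 26 members and 11 settings, 267 of 286 differences moved by less than the SD between probes and 19 by more. The settings that changed only the detection filter leave the difference of a single gene as it was, so they count as unmoved by construction. The mean of probes could move only members with more than 1 probe detected on both arrays. The count of 267 therefore overstates how stable the differences were. Dkk3 was the 1 member whose sign changed. The bound for Wnt4 ran from 1.44-fold to 2.64-fold. Across all genes the 2-fold counts were 124 higher and 174 lower, against 54 and 108 without background correction. No paired analysis was possible because each group holds 1 array. Every value rests on 1 array per group, and 16 members were detected on neither array.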
